A study of Mus musculus with 12 samples.

Results

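Interferon-stimulated genes are the genes that cells switch on when an interferon reaches them, and 43 of them were followed here in mouse livers depleted of Eif3m. Members were taken by symbol, from a list drawn up with earlier results of these data known: 28 targets typical of type I interferon (Isg15, the Ifit and Oas families and others), 12 GTPases typical of interferon-gamma, and a set of 3 made of the transcription factor Irf1 and the chemokines Cxcl9 and Cxcl10. They are 43 of the 50686 genes in the deposited table, and all 43 were among the 14248 genes with enough counts to be tested. FVB/N mice aged 6-8 weeks were injected in the tail vein with lipid nanoparticles that carried small interfering RNA (siRNA). The dose was 0.5 mg/kg, and mice had 1 such injection per 5 days. The siRNA was against Eif3m, a subunit of the translation initiation complex eIF3, or a control described in the labels as scrambled luciferase, so control livers carried nanoparticles and an siRNA too. Livers were sampled at day 9 or day 13, with 3 libraries in each of the 4 groups, and mRNA was captured from ground liver, so every value averages over all liver cells. Whether the 3 libraries of a group are from 3 animals is not stated in the labels. P-values here therefore rest on the spread among libraries alone, part of which may be technical.

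Type I interferons (the alpha and beta forms) bind the receptor Ifnar1-Ifnar2. Through its kinases Jak1 and Tyk2, a complex that holds Stat2 and Irf9 forms and binds the interferon-stimulated response element of target genes. Interferon-gamma binds Ifngr1-Ifngr2, and its kinases Jak1 and Jak2 lead to binding at another site, the gamma-activated sequence. In the liver hepatocytes, endothelial cells and the resident macrophages called Kupffer cells all respond to interferons. Immunity-related GTPases and guanylate-binding proteins are large GTPase families of mouse cells that attack the vacuoles in which intracellular pathogens live.

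RefSeq promoters of the GRCm38.p6 assembly, each running from 250 bases before to 50 bases after a transcription start, were found for 33 of the 43 members. A response element core (GAAANNGAA, read on both strands) stood in 22 of these 33 genes, or 66.7%, against 9.76% of the 27025 genes of the promoter table. It was found in 8 of 9 GTPases (88.9%) and 12 of 21 type I-type targets (57.1%). The gamma-activated sequence (TTCNNNGAA, which reads alike on both strands) stood in 10 of 33 members (30.3%), in 5 of 9 GTPases (55.6%) and in 4 of 21 type I-type targets, against 9.55% of all genes. The motifs overlapped each other in Bst2 alone. These are matches of letters in a fixed window, not shown binding sites. Several members are paralogs that share sequence, so they are not independent cases.

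The promoters of 4 immunity-related GTPases on chromosome 11 carried both motifs in a fixed arrangement, and they are shown because their family had the most negative median at day 13. Below, capitals mark first the gamma-activated sequence and then the response element core, 5′ to 3′ along the gene. The stretches lie at chr11:58199499-58199542 and chr11:58214890-58214933 on the plus strand and at chr11:48992303-48992346 and chr11:49064262-49064305 on the minus strand.
Igtp: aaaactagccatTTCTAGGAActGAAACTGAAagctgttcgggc
Irgm2: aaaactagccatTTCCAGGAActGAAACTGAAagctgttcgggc
Tgtp1: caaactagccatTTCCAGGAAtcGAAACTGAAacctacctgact
Tgtp2: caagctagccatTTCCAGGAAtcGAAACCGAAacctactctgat
In all 4, the first base of the response element core lay 11 bases after the first base of the gamma-activated sequence. That spacing occurred in 9 of the 32851 promoters of the table (0.0274%), and these 4 are among the 9. Both motifs at any spacing occurred in 351 (1.07%). The spacing was picked because these 4 members share it, so its share over all promoters does not measure how unusual the arrangement is.

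Other members, picked with their values known, are also shown. At day 9 some of them rose and some fell. Cxcl9, Gbp7, Ifit3 and Irgm1 fell at day 13, as Igtp, Irgm2 and Tgtp1 did. Here capitals mark response element cores, which start with TTC and end with TTTC where the match is on the opposite strand, and in Gbp7 the first capital runs are gamma-activated sequences. Ifit1 (chr19:34640768-34640825), Ifit3 (chr19:34583362-34583447), Gbp2 (chr3:142620593-142620625) and Gbp7 (chr3:142530218-142530304) are on the plus strand. Irgm1 (chr11:48871424-48871462) and Cxcl9 (chr5:92328234-92328266) are on the minus strand. In Ifit1 and in Irgm1 the first capital run holds a pair of cores that share bases.
Ifit1: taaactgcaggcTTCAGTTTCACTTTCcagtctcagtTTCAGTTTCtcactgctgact
Ifit3: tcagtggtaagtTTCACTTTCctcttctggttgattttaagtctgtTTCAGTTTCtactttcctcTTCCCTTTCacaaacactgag
Irgm1: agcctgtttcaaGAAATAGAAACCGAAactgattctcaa
Gbp2: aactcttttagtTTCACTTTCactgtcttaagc
Gbp7: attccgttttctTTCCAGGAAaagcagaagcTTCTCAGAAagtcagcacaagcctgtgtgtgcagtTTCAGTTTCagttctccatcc
Cxcl9: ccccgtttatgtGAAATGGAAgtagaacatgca
Ifit1 and Ifit3 held 3 cores each and no gamma-activated sequence, whereas Gbp2 and Cxcl9 held 1 core and no gamma-activated sequence. At day 9, Tgtp1, with the paired arrangement, rose and Igtp, with the same arrangement, was not called. Among these genes with cores alone, Gbp2 and Cxcl9 rose at day 9 and Ifit1, Ifit3 and Irgm1 fell. At day 13, Igtp, Irgm2 and Tgtp1 fell, but Tgtp2, with the same arrangement, was not called (log2 fold change −0.24). Irgm1, with cores alone, and Ifi47, with neither motif in its window, also fell at day 13 (−1.37 and −1.64). Whether the motifs bear on these changes was not tested.

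**Figure D1:**
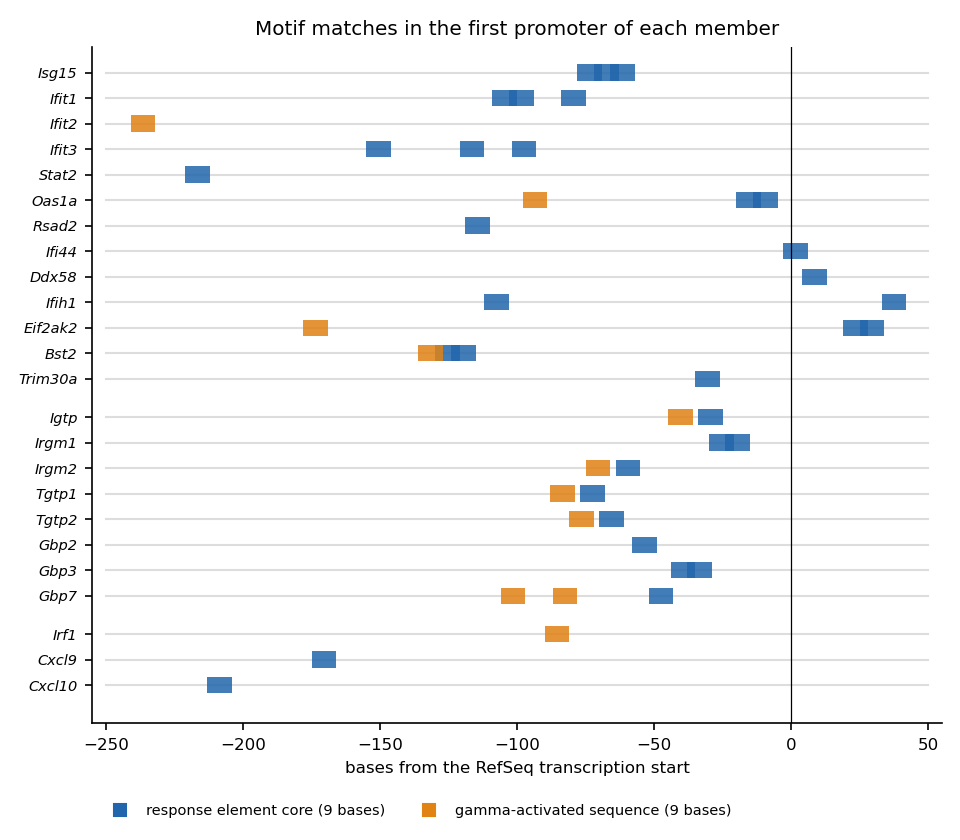
Positions of the response element core (blue) and the gamma-activated sequence (orange) in the first RefSeq promoter of each member that holds either, in bases from the transcription start (vertical line), grouped as type I-type targets, GTPases and the Irf1 and chemokine set. The blue box starts 11 bases after the start of the orange box in Igtp, Irgm2, Tgtp1 and Tgtp2.

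Total counts were 38783564 to 54538581 in the day 9 libraries and 7650269 to 9630027 in the day 13 libraries, so low members rest on few counts at day 13. Levels are CPM, counts scaled to the size of the library, and a gene was called when its adjusted p, from edgeR's quasi-likelihood test with Benjamini-Hochberg adjustment over all 14248 genes, was under 0.05. Fold changes are siRNA over control on the log2 scale. Eif3m itself stood at 10.7% of the control level at day 9 and at 6.53% at day 13. At day 13 a pair of libraries stood apart from the others of their groups: the chi-square per degree of freedom over genes was 12.5 between control replicates 1 and 2 but 39.2 and 44.9 between these and replicate 3, and 12.8 between siRNA replicates 1 and 3 but 38.9 and 28.8 between these and replicate 2. The median within-group SD of a gene's log2(CPM + 1) at day 9 was 0.116 for controls and 0.104 for siRNA, and at day 13 it was 0.219 for controls and 0.202 for siRNA.

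At day 9 the called members moved in both directions, and at day 13 every called member was lower. In whole-liver RNA, fewer cells of a type and less RNA per cell cannot be told apart. Day 9 and day 13 are also separate sets of libraries of different depth, so a day and its library set cannot be told apart. At day 9, 5 members rose (Cxcl9, Cxcl10, Gbp2, Gbp9 and Tgtp1) and 6 fell (Ifit1, Ifit3, Oasl1, Dhx58, Iigp1 and Irgm1), when 5.94% of all genes tested were called higher and 6.84% lower. At day 13, 21 members fell and 0 rose, when 10.9% of all genes were called lower and 12.8% higher. With 0 members called higher at day 13, 0 had an unadjusted p under 0.05 in that direction, and DESeq2 and limma-voom also called 0. The effects differed between the days in 10 members, all more negative at day 13 (1.66% of all genes were called in that direction and 0.898% in the other, where 0 members were called by edgeR, DESeq2 or limma-voom and 0 had an unadjusted p under 0.05). Of the 43 genes, 4 fell at both days (Ifit3, Iigp1, Irgm1 and Oasl1), 3 rose at day 9 and fell at day 13 (Cxcl9, Gbp9 and Tgtp1), and 18 were called at neither. Without the 2 day 13 libraries that stood apart, an alternative chosen after seeing the data, 15 members were lower and 0 higher at day 13, and 6 differed between the days. Of the 15591 genes tested in it, 1416 were lower and 1702 higher at day 13, and 230 had a more negative effect there. Cxcl9, Ifit3, Oas2, Rsad2, Tgtp1 and Trim30a then lost their day 13 call (adjusted p from 0.0686 to 0.136), and Gbp2, Igtp, Iigp1, Tgtp1, Trim30a and Zbp1 that of the difference (adjusted p from 0.0573 to 0.152), which Gbp7 and Parp14 gained. Each called member had siRNA libraries all above or all below the controls of its day, except Irf1 at day 13. Genes that pass a test of 3 against 3 libraries tend to separate in this way, so it adds nothing to the calls. Some members that were not called separated too, such as Parp9 at day 9 and Dhx58 at day 13. The share of all genes tested that separate was not counted.

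**Figure D2:**
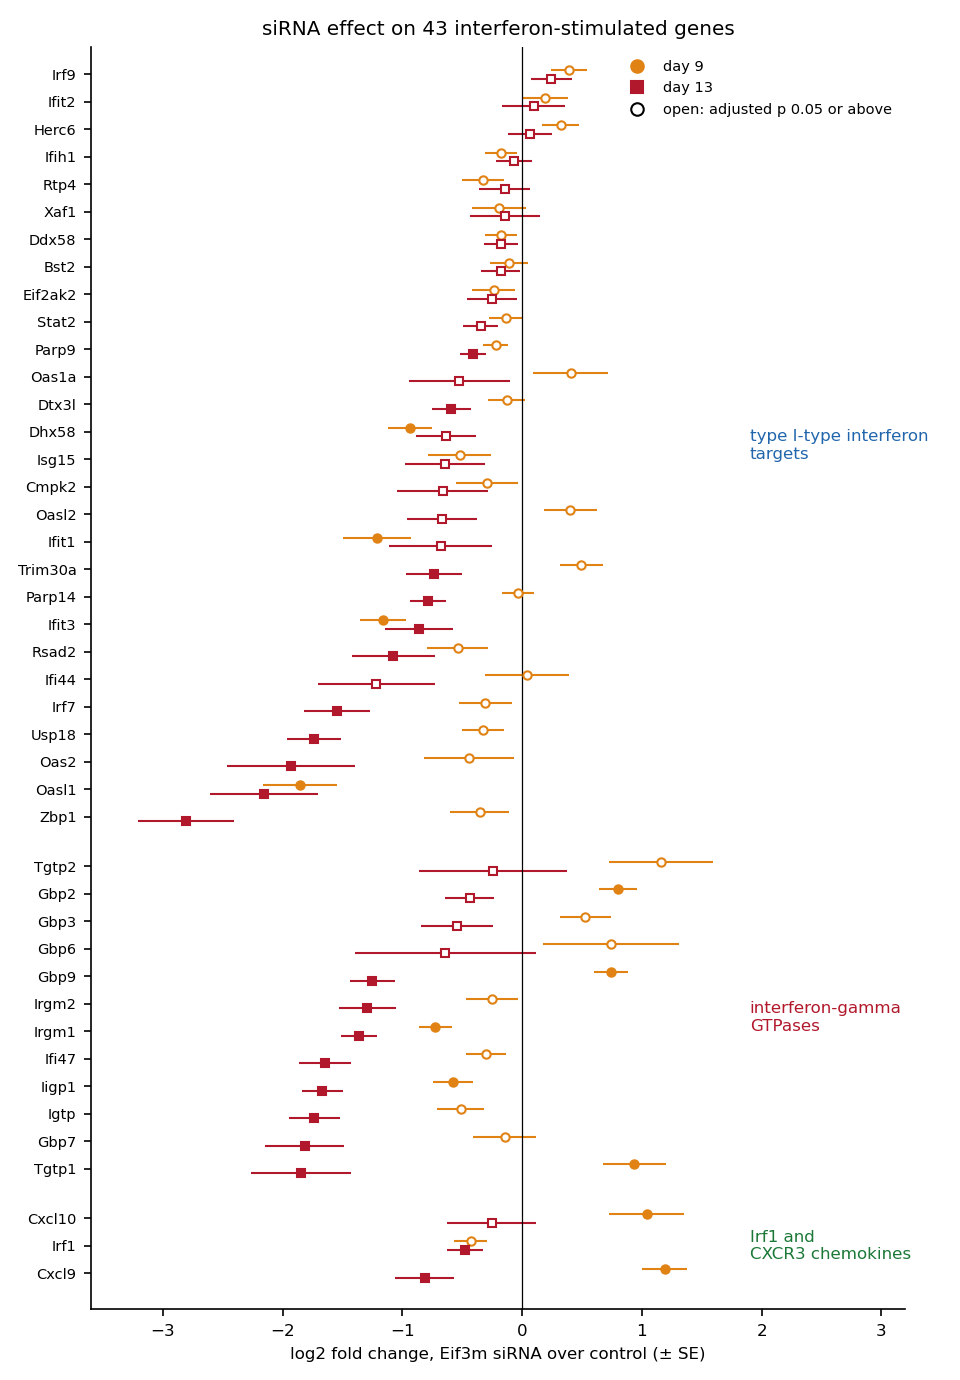
Log2 fold change of Eif3m siRNA over control for each of the 43 genes at day 9 (orange circles) and day 13 (red squares), with bars of 1 SE, 3 libraries a group. Filled symbols passed an adjusted p of 0.05. At day 13 all 12 GTPases lie left of 0, whereas at day 9 they fall on both sides.

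The classes are described apart. The median log2 fold change of the 28 type I-type targets was −0.21 at day 9, with 4 lower and 0 higher, and −0.64 at day 13, with 11 lower and 0 higher (7 lower without day 13 siRNA replicate 3). For the 12 GTPases it was 0.19 at day 9, with 3 higher and 2 lower, and −1.33 at day 13, with 8 lower and 0 higher. Of all 14248 genes, 5.94% were called higher and 6.84% lower at day 9, and 12.8% and 10.9% at day 13. The medians over all 14248 genes were 0.01 and 0. In the difference between the days, 6 GTPases and 3 type I-type targets were called more negative, when 1.66% of all genes were. All 12 GTPases had a negative value, against 22 of 28 type I-type targets. The difference between the classes was not itself tested. Among members with a mean of at least 5 CPM, which drops many low genes, the medians at day 13 were −0.24 for type I-type targets and −1.53 for GTPases, and the day 9 median of the GTPases was −0.19.

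**Figure D3:**
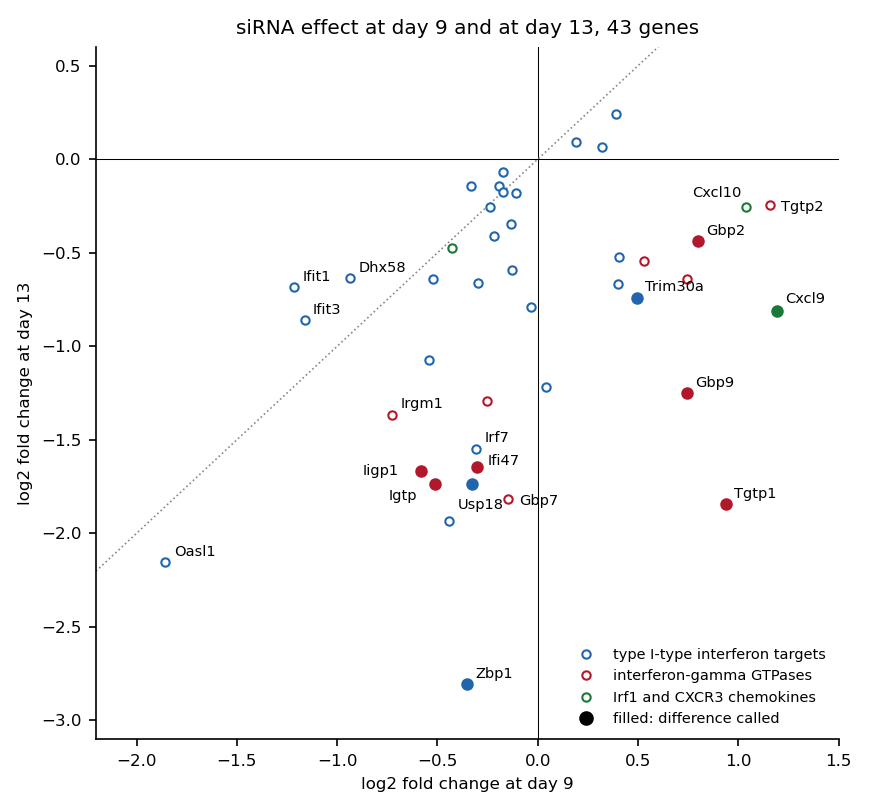
Log2 fold change at day 13 against that at day 9 for the 43 genes, coloured by class, with filled points for the 10 genes whose effects differed between the days. The dotted line marks equal effects. All 12 GTPases (red) lie below it, and Cxcl9, Gbp2, Gbp9 and Tgtp1 lie right of 0 at day 9 and below 0 at day 13.

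In the controls the members spanned a wide range of levels per length of exon. Bst2, a membrane protein that tethers budding virus, had the highest mean per kilobase at day 9, 60.0 CPM per kilobase, followed by Iigp1 at 57.1 and Igtp at 25.3 CPM per kilobase. The lowest was Ifi44 at 0.154 CPM per kilobase. Isg15, a ubiquitin-like modifier that is often used as a marker of interferon action, stood at 5.04 CPM per kilobase.

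The immunity-related GTPases had the most negative median log2 fold change of the 7 roles at day 13, −1.64. At that day, 6 of the 7 fell, to between 28.4% and 40.9% of the control level, when 10.9% of all genes were called lower. Their summed level was 391 to 440.0 CPM in the day 13 controls and 124 to 165 CPM in the siRNA libraries. At day 9 the sums were 497 to 522 and 289 to 469.6 CPM. There 2 of the 7 fell and 1 rose, when 6.84% of all genes were called lower and 5.94% higher. Without any 1 day 9 library except siRNA replicate 1, 1 of the 7 fell at day 9. The call of the 1 that rose was lost without any 1 day 9 library except siRNA replicate 2, and 2 rose without day 13 control replicate 3. All but Iigp1 lie on chromosome 11 of mm10. Irgm1, Tgtp1, Tgtp2 and Ifi47 lie between 48861968 and 49096974, and Igtp and Irgm2 between 58199556 and 58222782.

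Iigp1, an effector GTPase that coats parasite vacuoles, had the highest level per kilobase of them. It stood at 324, 348 and 326 CPM in the day 9 controls and 279, 182 and 205 CPM in the day 9 siRNA libraries. It stood at 246, 279.6 and 277 CPM in the day 13 controls and 73.7, 72.3 and 107 CPM in the day 13 siRNA libraries. No siRNA library reached the lowest control of its day, and the gap was wider at day 13. Its fold change on the log2 scale was −0.58 (SE 0.167, adjusted p = 0.0357) at day 9 and −1.67 (SE 0.173, adjusted p = 2.26e-05) at day 13, and the difference of −1.09 (SE 0.238, adjusted p = 0.0325) was called. The day 9 call was lost without any 1 control library of that day or without siRNA replicate 2 or 3 (adjusted p from 0.0804 to 0.145). The difference was lost without any 1 day 9 library except siRNA replicate 2, and without day 13 control replicate 2 or siRNA replicate 1 (adjusted p from 0.0546 to 0.0797).

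Irgm1 belongs to the regulatory branch, which keeps the effector GTPases inactive on the membranes of the cell's own organelles. Its values were 41.6, 39.2 and 50.2 CPM in the day 9 controls and 30.4, 22.1 and 26.8 CPM in the day 9 siRNA libraries. It had 36.7, 45.9 and 42.9 CPM in the day 13 controls and 15.9, 15.7 and 17.1 CPM in the day 13 siRNA libraries. Irgm1 was lower at both days without overlap. Its log2 fold changes were −0.72 (SE 0.136, adjusted p = 0.00399) and −1.37 (SE 0.150, adjusted p = 3.32e-05), and the difference between the days was −0.64 (adjusted p = 0.101).

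Igtp and Irgm2 are the other regulators of this branch, and exons of their gene models overlap, so reads may be shared between them. Igtp had 48.7, 46.9 and 57.9 CPM in the day 9 controls and 48.2, 23.9 and 35.4 CPM in the day 9 siRNA libraries. It had 51.5, 50.02 and 52.1 CPM in the day 13 controls and 17.9, 13.9 and 14.6 CPM in the day 13 siRNA libraries. At day 9 siRNA replicate 1 lay among the controls and the other siRNA libraries below them, whereas at day 13 all siRNA libraries were at less than any control. The change at day 9 was −0.51 (SE 0.194, adjusted p = 0.101) and that at day 13 −1.74 (SE 0.215, adjusted p = 9.61e-05), with a difference of −1.22 (SE 0.288, adjusted p = 0.0448) between the days. Leaving out day 9 siRNA replicate 1 brought the day 9 change to −0.80 (adjusted p = 0.015) and the difference to −0.95 (adjusted p = 0.086), and leaving out any other single library except day 9 siRNA replicate 2 also ended the call of the difference (adjusted p up to 0.112).

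Irgm2 had 52.0, 54.5 and 58.2 CPM in the day 9 controls and 65.0, 33.4 and 39.8 CPM in the day 9 siRNA libraries. It had 35.7, 30.5 and 49.6 CPM in the day 13 controls and 14.96, 15.1 and 17.3 CPM in the day 13 siRNA libraries. Day 9 siRNA replicate 1 was the highest of all 12 libraries and the other siRNA libraries of that day were below the controls, so the groups overlapped. The log2 change was −0.25 (SE 0.216, adjusted p = 0.49) at day 9 and −1.29 (SE 0.240, adjusted p = 0.00189) at day 13. The difference was −1.04 (adjusted p = 0.101), with an adjusted p of 0.0479 without day 9 siRNA replicate 2 and of 0.0399 by DESeq2.

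Ifi47, another immunity-related GTPase, whose exons overlap Olfr56, stood at 20.4, 15.8 and 19.4 CPM in the day 9 controls and 18.8, 12.5 and 13.8 CPM in the day 9 siRNA libraries. It stood at 11.3, 13.0 and 10.7 CPM in the day 13 controls and 3.78, 2.97 and 4.49 CPM in the day 13 siRNA libraries. The day 13 groups were far apart and the day 9 groups overlapped. On the log2 scale Ifi47 changed by −0.30 (SE 0.164, adjusted p = 0.257) at day 9 and −1.64 (SE 0.218, adjusted p = 0.000137) at day 13, a difference of −1.34 (SE 0.274, adjusted p = 0.0234). The difference missed the threshold without day 9 control replicate 2 (adjusted p = 0.0523) or siRNA replicate 1 (adjusted p = 0.0509).

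Tgtp1 and Tgtp2 encode nearly identical effector GTPases, and reads cannot be assigned to one or the other with certainty. Tgtp1 had 7.04, 6.70 and 7.72 CPM in the day 9 controls and 19.2, 9.65 and 12.2 CPM in the day 9 siRNA libraries. It then had 5.38, 2.99 and 6.93 CPM in the day 13 controls and 1.82, 1.76 and 0.766 CPM in the day 13 siRNA libraries. Every siRNA library was above the controls at day 9 and below them at day 13. The change was 0.94 (SE 0.263, adjusted p = 0.0342) at day 9 and −1.84 (SE 0.418, adjusted p = 0.00647) at day 13, and the difference of −2.78 (SE 0.493, adjusted p = 0.0142) was the most negative of the 43. The day 9 call was lost without any 1 day 9 library except siRNA replicate 2 (log2 0.60 to 1.02, adjusted p from 0.059 to 0.167). The day 13 call and the difference were lost under limma-voom (adjusted p = 0.0588 and 0.0602) and without both day 13 libraries that stood apart (adjusted p = 0.0703 and 0.0573). Tgtp2 had 3.83, 2.89 and 2.53 CPM in the day 9 controls and 8.59, 5.38 and 6.67 CPM in the day 9 siRNA libraries. It had 4.44, 4.84 and 0.433 CPM in the day 13 controls and 1.82, 1.85 and 4.16 CPM in the day 13 siRNA libraries. Day 13 control replicate 3 was the lowest and siRNA replicate 3 lay just under the other controls, and neither day was called (1.16, SE 0.435, adjusted p = 0.109 at day 9 and −0.24, SE 0.615, adjusted p = 0.82 at day 13). Without day 13 control replicate 3 the day 9 change was called (1.16, adjusted p = 0.0071), and so was the difference (−2.001, adjusted p = 0.0397). The day 9 change was also called under limma-voom (adjusted p = 0.0251), with each day fitted alone (adjusted p = 0.00654) and without both day 13 libraries that stood apart (adjusted p = 0.00533).

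**Figure D4:**
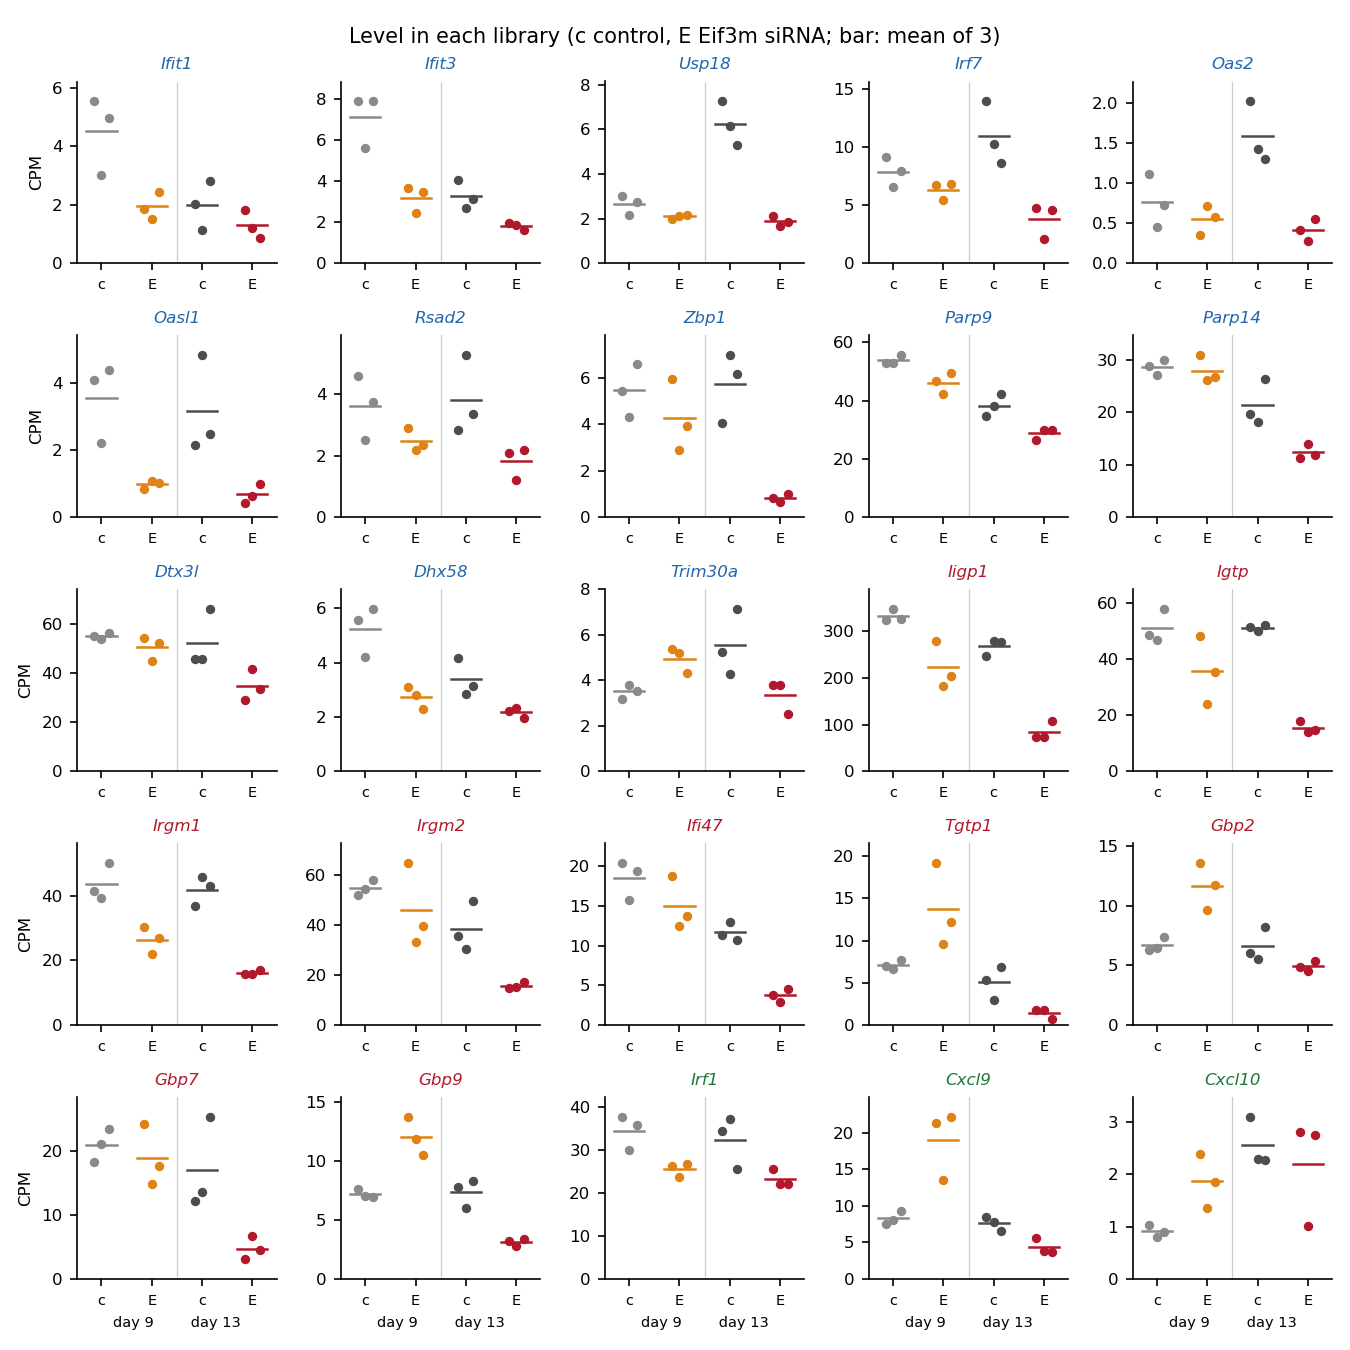
Level in CPM in each library for the 25 members called at either day or for the difference, with c for control and E for Eif3m siRNA, day 9 left and day 13 right of the grey line, points for libraries and bars for the mean of 3. Titles are blue for type I-type targets, red for GTPases and green for the Irf1 and chemokine set. The siRNA points of Iigp1, Igtp, Irgm1 and Ifi47 at day 13 lie far below the controls, and those of Cxcl9, Gbp2, Gbp9 and Tgtp1 at day 9 lie above.

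Of 5 guanylate-binding proteins 2 rose at day 9 (Gbp2 and Gbp9), and 2 fell at day 13 (Gbp7 and Gbp9). Among all genes, 5.94% were called higher at day 9 and 10.9% lower at day 13. Gbp2, which attacks vacuoles and bacteria, had 6.25, 6.45 and 7.38 CPM in the day 9 controls and 13.6, 9.60 and 11.8 CPM in the day 9 siRNA libraries. It had 6.06, 5.56 and 8.23 CPM in the day 13 controls and 4.89, 4.54 and 5.37 CPM in the day 13 siRNA libraries. The day 9 siRNA libraries all exceeded the controls and the day 13 siRNA libraries all lay under theirs. The log2 fold changes were 0.80 (SE 0.158, adjusted p = 0.00524) and −0.44 (SE 0.203, adjusted p = 0.137). Between the days the difference was −1.24 (SE 0.256, adjusted p = 0.0253), and it was lost without day 9 control replicate 1 or 2, day 9 siRNA replicate 1 or 3 or day 13 control replicate 3 (adjusted p from 0.0504 to 0.0654).

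Gbp9, whose exons overlap those of Gbp4 and Gbp8, had 7.66, 7.03 and 6.93 CPM in the day 9 controls and 13.8, 11.9 and 10.6 CPM in the day 9 siRNA libraries. It had 7.80, 5.99 and 8.34 CPM in the day 13 controls and 3.22, 2.78 and 3.40 CPM in the day 13 siRNA libraries. No siRNA library overlapped the controls at either day, on opposite sides. The change was 0.74 (SE 0.139, adjusted p = 0.00394) at day 9 and −1.25 (SE 0.189, adjusted p = 0.000376) at day 13, and the difference of −1.99 (SE 0.235, adjusted p = 0.00232) had the smallest adjusted p of the 43 genes. It was called in every alternative run.

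Gbp7 had 18.4, 21.2 and 23.5 CPM in the day 9 controls and 24.3, 14.9 and 17.8 CPM in the day 9 siRNA libraries. It had 12.2, 13.7 and 25.4 CPM in the day 13 controls and 3.08, 6.68 and 4.60 CPM in the day 13 siRNA libraries. At day 9 the groups overlapped and at day 13 the highest siRNA library was at 6.68 CPM, under the lowest control. The day 9 change was −0.15 (SE 0.264, adjusted p = 0.77) and the day 13 change −1.82 (SE 0.331, adjusted p = 0.0019), and the difference was −1.67 (SE 0.423, adjusted p = 0.0582). The difference passed the threshold without day 9 siRNA replicate 2 (adjusted p = 0.0476) or without day 13 siRNA replicate 2 (adjusted p = 0.0438). It also passed by DESeq2 (adjusted p = 0.00406), under upper-quartile scaling (adjusted p = 0.044) and without both day 13 libraries that stood apart (adjusted p = 0.038). Gbp3 and Gbp6 passed no test, with log2 fold changes of 0.53 and 0.74 at day 9 and −0.54 and −0.64 at day 13. Counts of Gbp6, which shares exons with Gm43302, varied widely within groups, at 28, 11 and 73 in the day 13 controls and 0, 40 and 42 in the siRNA libraries.

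One library carried part of the day 9 pattern of the GTPases. Relative to the mean of the day 9 controls, their median log2 level was 0.52 in siRNA replicate 1, against −0.19 and −0.07 in replicates 2 and 3. Without replicate 1 the median fold change of the 12 GTPases was −0.04, Irgm1, Iigp1 and Igtp were called lower, and Gbp2 (0.66, adjusted p = 0.0319) and Gbp9 (0.63, adjusted p = 0.0262) were called higher.

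The chemokines Cxcl9 and Cxcl10, which draw T cells through the receptor Cxcr3, both rose at day 9, when 5.94% of all genes did. Cxcl9 stood at 7.53, 8.05 and 9.34 CPM in the day 9 controls and 21.2, 13.5 and 22.2 CPM in the day 9 siRNA libraries. It stood at 8.48, 7.84 and 6.50 CPM in the day 13 controls and 5.59, 3.80 and 3.72 CPM in the day 13 siRNA libraries. The siRNA libraries were all above the controls at day 9 and all below them at day 13. On the log2 scale Cxcl9 changed by 1.19 (SE 0.187, adjusted p = 0.00131) at day 9 and −0.81 (SE 0.246, adjusted p = 0.028) at day 13, and the difference of −2.01 (SE 0.308, adjusted p = 0.00605) was called in every alternative run. The day 13 call was lost without control replicate 1 or 2 or siRNA replicate 2 or 3 of that day (adjusted p from 0.0704 to 0.103).

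Cxcl10 stood at 1.03, 0.801 and 0.893 CPM in the day 9 controls and 2.39, 1.35 and 1.86 CPM in the day 9 siRNA libraries. It had 3.10, 2.28 and 2.27 CPM in the day 13 controls and 2.80, 1.02 and 2.74 CPM in the day 13 siRNA libraries. It was near 1 CPM in the day 9 controls, and only the day 9 groups were separate. Its change was 1.04 (SE 0.310, adjusted p = 0.042) at day 9 and −0.26 (SE 0.374, adjusted p = 0.675) at day 13. The day 9 call was lost without any 1 day 9 library except siRNA replicate 2, and without day 13 control replicate 2 or siRNA replicate 3 (adjusted p from 0.0505 to 0.186). Reads of Cxcl10 may be shared with Art3, which lies on the opposite strand with overlapping exons.

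Irf1, a transcription factor that is induced by interferons and itself binds response elements, stood at 37.7, 30.0 and 35.8 CPM in the day 9 controls and 26.3, 23.8 and 26.8 CPM in the day 9 siRNA libraries. It stood at 34.5, 37.0 and 25.6 CPM in the day 13 controls and 25.6, 21.98 and 22.1 CPM in the day 13 siRNA libraries. The siRNA libraries were under every control at day 9, and at day 13 siRNA replicate 1 and control replicate 3 were both at 25.6 CPM. The change was −0.43 (SE 0.137, adjusted p = 0.0557) at day 9 and −0.48 (SE 0.148, adjusted p = 0.0317) at day 13. The day 9 change passed when control replicate 2, control replicate 3 or siRNA replicate 2 of day 13 was left out (adjusted p from 0.0187 to 0.0497). It also passed by DESeq2 (adjusted p = 0.0228), under limma-voom (adjusted p = 0.0333), with each day fitted alone (adjusted p = 0.0159) and without the filter on low counts (adjusted p = 0.0478). The day 13 change missed the threshold without control replicate 1 or 2 or siRNA replicate 2 or 3 (adjusted p from 0.0789 to 0.125). It missed too under limma-voom (adjusted p = 0.0609) and with each day fitted alone (adjusted p = 0.0914).

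Among genes of interferon signalling and feedback, Usp18 and Irf7 fell at day 13 and were not called at day 9, and Irf1, described above, is the third that fell. These are 3 of 6 such genes, when 10.9% of all genes were called lower at day 13. Usp18 removes Isg15 from proteins and damps signalling at Ifnar2. It had 3.03, 2.15 and 2.73 CPM in the day 9 controls and 1.99, 2.13 and 2.17 CPM in the day 9 siRNA libraries. It had 7.27, 6.13 and 5.31 CPM in the day 13 controls and 2.10, 1.67 and 1.86 CPM in the day 13 siRNA libraries. The day 13 controls stood higher than the day 9 controls, while siRNA libraries of both days lay near 2 CPM. The days are separate libraries of different depth, so a day and its libraries cannot be told apart. On the log2 scale Usp18 changed by −0.33 (SE 0.177, adjusted p = 0.255) at day 9 and −1.74 (SE 0.224, adjusted p = 0.000116) at day 13, a difference of −1.41 (SE 0.287, adjusted p = 0.023). That difference was lost without day 9 siRNA replicate 1 or 3, day 13 control replicate 1 or day 13 siRNA replicate 3 (adjusted p from 0.0502 to 0.0613).

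Irf7, the factor that amplifies transcription of the interferon genes, had 9.13, 6.54 and 7.99 CPM in the day 9 controls and 6.76, 5.45 and 6.88 CPM in the day 9 siRNA libraries. It had 14.0, 10.3 and 8.66 CPM in the day 13 controls and 4.75, 2.13 and 4.60 CPM in the day 13 siRNA libraries. Day 9 groups overlapped and day 13 groups did not. The change was −0.31 (SE 0.219, adjusted p = 0.396) and −1.55 (SE 0.279, adjusted p = 0.00129) in turn, with a difference of −1.24 (adjusted p = 0.0793). DESeq2 called that difference (adjusted p = 0.0239). Irf7 exons overlap Phrf1 on the other strand. Stat2, Irf9 and Isg15 passed no test, with log2 fold changes of −0.13, 0.39 and −0.52 at day 9 and −0.35, 0.24 and −0.64 at day 13. Isg15 was called lower at day 13 without siRNA replicate 1 (−1.01, adjusted p = 0.0492).

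Of the 4 sensors of foreign nucleic acid, Dhx58 fell at day 9 and Zbp1 at day 13. Among all genes, 6.84% and 10.9% were called lower at those days. The sensors Ddx58 and Ifih1 were called at neither day (log2 fold changes from −0.18 to −0.07). Dhx58, a helicase that tunes those sensors, had 5.58, 4.20 and 5.99 CPM in the day 9 controls and 3.10, 2.82 and 2.29 CPM in the day 9 siRNA libraries. It had 4.17, 2.85 and 3.14 CPM in the day 13 controls and 2.24, 2.32 and 1.97 CPM in the day 13 siRNA libraries. The groups did not overlap at either day. The log2 fold changes were −0.94 (SE 0.181, adjusted p = 0.00473) at day 9 and −0.63 (SE 0.253, adjusted p = 0.0855) at day 13. Zbp1, a sensor of nucleic acid in the Z form that can trigger necroptosis, had 5.45, 4.30 and 6.61 CPM in the day 9 controls and 5.94, 2.90 and 3.94 CPM in the day 9 siRNA libraries. It had 4.04, 6.98 and 6.17 CPM in the day 13 controls and 0.839, 0.649 and 0.986 CPM in the day 13 siRNA libraries. At day 13 the siRNA libraries were all under 1 CPM, from counts of 6, 7 and 9 against 30, 49 and 57 in the controls. Zbp1 gave the largest fall at day 13 among the 43 genes, −2.81 (SE 0.400, adjusted p = 0.000237), to 14.4% of control, after −0.35 (SE 0.248, adjusted p = 0.387) at day 9. The difference between the days was −2.45 (SE 0.480, adjusted p = 0.0193). It was lost under limma-voom (adjusted p = 0.105) and without both day 13 libraries that stood apart (adjusted p = 0.0802).

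Antiviral effectors fell in 3 of 12 cases at day 9 (Ifit1, Ifit3 and Oasl1) and in 5 of 12 at day 13 (Ifit3, Oasl1, Oas2, Rsad2 and Trim30a). The shares of all genes called lower were 6.84% and 10.9% in turn. None of the 12 rose at either day by edgeR, though some alternatives called Trim30a higher at day 9. At day 13 the 5 became 2 or 3 without any 1 day 13 library except control replicate 2, and 1 without both libraries that stood apart. Ifit1, which binds viral RNA ends, had 5.55, 3.03 and 4.97 CPM in the day 9 controls and 1.86, 1.52 and 2.46 CPM in the day 9 siRNA libraries. It had 2.02, 1.14 and 2.82 CPM in the day 13 controls and 1.82, 1.21 and 0.876 CPM in the day 13 siRNA libraries. The change was −1.21 (SE 0.282, adjusted p = 0.0132) at day 9, with no overlap, and −0.68 (SE 0.431, adjusted p = 0.28) at day 13, where the groups overlapped. The day 9 call was lost without control replicate 1 or 3 or either of siRNA replicates 1 and 2 of that day (adjusted p from 0.0523 to 0.0679) and with day 9 counts thinned to the depth of day 13 (adjusted p = 0.0783).

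Ifit3, which forms complexes with Ifit1, had 7.89, 5.59 and 7.89 CPM in the day 9 controls and 3.66, 2.43 and 3.45 CPM in the day 9 siRNA libraries. It had 4.04, 2.71 and 3.14 CPM in the day 13 controls and 1.96, 1.85 and 1.64 CPM in the day 13 siRNA libraries. The siRNA libraries were lower at both days, with log2 fold changes of −1.16 (SE 0.191, adjusted p = 0.0018) and −0.86 (SE 0.284, adjusted p = 0.0414). The day 13 call was lost without any 1 day 13 library except control replicate 2 (adjusted p from 0.0624 to 0.152). Oasl1, a protein of the oligoadenylate synthetase family that limits translation of Irf7, had 4.09, 2.23 and 4.39 CPM in the day 9 controls and 0.843, 1.08 and 1.01 CPM in the day 9 siRNA libraries. It had 2.15, 4.84 and 2.49 CPM in the day 13 controls and 0.420, 0.649 and 0.986 CPM in the day 13 siRNA libraries. All siRNA libraries were near or under 1 CPM, with counts of 3, 7 and 9 at day 13, and all controls above 2 CPM. Oasl1 gave the largest fall at day 9 among the 43 genes, −1.86 (SE 0.309, adjusted p = 0.00192), and changed by −2.15 (SE 0.452, adjusted p = 0.0036) at day 13.

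Oas2, an oligoadenylate synthetase that activates RNA decay on double-stranded RNA, had 1.11, 0.449 and 0.724 CPM in the day 9 controls and 0.359, 0.717 and 0.578 CPM in the day 9 siRNA libraries. It had 2.02, 1.43 and 1.3 CPM in the day 13 controls and 0.420, 0.278 and 0.547 CPM in the day 13 siRNA libraries, from counts of 15, 10 and 12 and 3, 3 and 5. The day 9 groups overlapped (−0.44, SE 0.374, adjusted p = 0.486) and the day 13 groups did not (−1.93, SE 0.533, adjusted p = 0.0177). The day 13 call was lost without control replicate 1 or siRNA replicate 2 (adjusted p = 0.0631 and 0.0645). Rsad2, or viperin, which makes a chain terminator of viral RNA synthesis, had 4.60, 2.52 and 3.74 CPM in the day 9 controls and 2.91, 2.20 and 2.33 CPM in the day 9 siRNA libraries. It had 2.83, 5.27 and 3.36 CPM in the day 13 controls and 2.10, 1.21 and 2.19 CPM in the day 13 siRNA libraries. The changes were −0.54 (SE 0.253, adjusted p = 0.186) and −1.08 (SE 0.347, adjusted p = 0.0376), and the day 13 call was lost without control replicate 2 or any 1 siRNA library (adjusted p from 0.0545 to 0.154).

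Trim30a, a TRIM family protein, had 3.19, 3.81 and 3.55 CPM in the day 9 controls and 5.36, 5.20 and 4.32 CPM in the day 9 siRNA libraries. It had 5.25, 4.28 and 7.15 CPM in the day 13 controls and 3.78, 3.80 and 2.52 CPM in the day 13 siRNA libraries. Its siRNA libraries were all above the controls at day 9 and all below them at day 13. The changes were 0.50 (SE 0.183, adjusted p = 0.0941) and −0.74 (SE 0.233, adjusted p = 0.034), with a difference of −1.24 (SE 0.297, adjusted p = 0.046). At day 9 it was called higher under limma-voom (adjusted p = 0.0358), with each day fitted alone (adjusted p = 0.033) and without both day 13 libraries that stood apart (adjusted p = 0.0469). The day 13 call was lost on leaving out control replicate 1, control replicate 3 or siRNA replicate 3 (adjusted p from 0.0583 to 0.149), and the difference without any 1 library except day 13 control replicate 2 and siRNA replicate 2 (adjusted p from 0.0627 to 0.121). The other effectors (Ifit2, Oas1a, Oasl2, Eif2ak2, Bst2 and Cmpk2) passed no test, with log2 fold changes of −0.30 to 0.40 at day 9 and −0.67 to 0.09 at day 13.

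Parp9, Dtx3l and Parp14 fell at day 13 among 7 other type I-type targets, when 10.9% of all genes were called lower. Parp9 and Dtx3l encode partner proteins, an ADP-ribosyltransferase family member and a ubiquitin ligase, and their gene models overlap on opposite strands, so counts may be shared. Parp9 had 52.8, 52.9 and 55.7 CPM in the day 9 controls and 46.6, 42.4 and 49.6 CPM in the day 9 siRNA libraries. It had 34.6, 38.0 and 42.2 CPM in the day 13 controls and 26.6, 29.9 and 30.0 CPM in the day 13 siRNA libraries. Groups were separate at both days. The log2 fold changes were −0.22 (SE 0.104, adjusted p = 0.189) and −0.41 (SE 0.112, adjusted p = 0.0166), and the day 13 call was lost without siRNA replicate 1 (adjusted p = 0.0627).

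Dtx3l had 55.3, 54.2 and 56.7 CPM in the day 9 controls and 54.4, 45.0 and 52.5 CPM in the day 9 siRNA libraries. It had 45.8, 45.7 and 66.4 CPM in the day 13 controls and 29.1, 41.9 and 33.7 CPM in the day 13 siRNA libraries. The day 9 groups overlapped, and at day 13 control replicate 3 stood above the other controls. The changes were −0.13 (SE 0.154, adjusted p = 0.636) and −0.59 (SE 0.163, adjusted p = 0.0177), the second lost without control replicate 3 or siRNA replicate 1 or 3 (log2 −0.40, −0.47 and −0.57, adjusted p from 0.0578 to 0.0723). Parp14, an ADP-ribosyltransferase, had 28.9, 27.2 and 30.0 CPM in the day 9 controls and 31.0, 26.2 and 26.8 CPM in the day 9 siRNA libraries. It had 19.6, 18.2 and 26.3 CPM in the day 13 controls and 11.3, 13.9 and 11.9 CPM in the day 13 siRNA libraries. Its changes were −0.04 (SE 0.132, adjusted p = 0.897) and −0.79 (SE 0.152, adjusted p = 0.00205), with a difference of −0.75 (adjusted p = 0.0612). That difference passed without day 13 siRNA replicate 2 (adjusted p = 0.0449), by DESeq2 (adjusted p = 0.0117) and under upper-quartile scaling (adjusted p = 0.0437). Ifi44, Xaf1, Rtp4 and Herc6 were not called by edgeR, at −0.33 to 0.32 at day 9 and −1.22 to 0.06 at day 13. Ifi44 was called lower at day 13 without siRNA replicate 1 (−1.89, adjusted p = 0.0183), and Herc6 higher at day 9 with each day fitted alone (0.32, adjusted p = 0.0241).

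Upstream of these genes, interferon transcripts were at or near the limit of detection. Of 21 ligand genes none had enough counts to test. Ifng had 1 to 3 counts in every day 9 library, Ifnz had 3 counts in each of 2 libraries and Ifnb1 had 2 counts in 1 library, all at day 9. The other 18 ligands, the alpha genes among them, had 0 counts in all 12 libraries, which, at 3 counts, allows up to 0.05 to 0.0771 CPM at day 9 and 0.278 to 0.427 CPM at day 13 by counting error. Transcripts this low in whole liver were not measurable at this depth.

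Kinases of the pathway changed in both directions. For the counts below, 5.94% of all genes tested were called higher and 6.84% lower at day 9, and 12.8% and 10.9% at day 13. Of 5 tested receptor genes, Ifngr1, the ligand-binding chain for interferon-gamma, fell at day 13 (−0.47, SE 0.128, adjusted p = 0.0167), and none was called at day 9, where 0 had an unadjusted p under 0.05 and every alternative called 0. The kinase Jak1 rose at both days (0.46, SE 0.114, adjusted p = 0.019 at day 9 and 0.49, SE 0.116, adjusted p = 0.00782 at day 13), the kinase Tyk2 fell at both (−0.38, SE 0.104, adjusted p = 0.0281 at day 9 and −0.61, SE 0.118, adjusted p = 0.00199 at day 13), and Jak2 fell at day 13 (−0.40, SE 0.134, adjusted p = 0.0423). The day 9 calls were lost for Jak1 without control replicate 1 or 3 or siRNA replicate 2 of day 9 (adjusted p from 0.0614 to 0.0682), and for Tyk2 without any 1 day 9 library except control replicate 2 (adjusted p from 0.0723 to 0.113). The call of Jak2 was lost without replicate 1 or 3 of either day 13 group or replicate 3 of either day 9 group (adjusted p from 0.0523 to 0.143), and that of Ifngr1 without replicate 2 of either day 13 group (adjusted p = 0.0576 and 0.0799). Without day 13 siRNA replicate 1, 2 receptor genes were lower at day 13. Among 7 tested inhibitors of signalling, Ptpn1 rose and Pias4 fell at day 9 (both lost without control replicate 1 or 2 or any 1 siRNA library of day 9, or day 13 siRNA replicate 3, and Ptpn1 also without day 13 control replicate 1 or 2), and Ptpn2, a phosphatase acting on Jak1, rose at day 13 (0.58, SE 0.128, adjusted p = 0.00467). Of 19 genes of the machinery that induces interferon, 1 fell at day 9 and 2 at day 13, near the shares over all genes. Irf5 fell at both days (−0.43, SE 0.124, adjusted p = 0.0374 at day 9 and −0.73, SE 0.140, adjusted p = 0.002 at day 13). Unc93b1, which escorts Toll-like receptors, fell at day 13 (−0.69, SE 0.138, adjusted p = 0.00273). The day 9 call of Irf5 was lost without any 1 day 9 library except control replicate 2, or without day 13 siRNA replicate 3 (adjusted p from 0.0568 to 0.148).

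A wider list of 76 other interferon-stimulated genes, of which 69 were tested, had 4 higher and 11 lower at day 9 and 3 higher and 28 lower at day 13. The medians were −0.04 and −0.50. Over all genes tested, 5.94% were called higher and 6.84% lower at day 9, and 12.8% and 10.9% at day 13. The 4 of 69 higher at day 9 are near that share. Without day 13 control replicate 3 and siRNA replicate 2 together, 18 genes of this list were lower at day 13. At day 9 the 11 became 3 to 6 without any 1 day 9 library except control replicate 2, and the 4 became 1 or 2 without any 1 day 9 control or siRNA replicate 1. Some went against the direction of most. Gbp11, a further guanylate-binding protein, rose from 134 ± 11.0 to 405 ± 120.0 CPM at day 9 and from 62.7 ± 12.02 to 158 ± 29.3 CPM at day 13 (SD, n = 3). Its changes were 1.60 (SE 0.211, adjusted p = 0.000565) and 1.33 (SE 0.215, adjusted p = 0.000723) by edgeR. Ube2l6, the enzyme that conjugates Isg15, rose at day 13 (1.22, SE 0.125, adjusted p = 2.13e-05). Apol9b fell at both days (−0.75, SE 0.194, adjusted p = 0.0231 at day 9 and −1.83, SE 0.212, adjusted p = 5.87e-05 at day 13), and so did Ido2 (log2 −0.79 and −0.69). The day 9 call of Apol9b was lost when control replicate 1, control replicate 3 or siRNA replicate 2 was left out (adjusted p from 0.0736 to 0.0872).

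Antigen presentation, which interferon-gamma induces, was also followed. The shares over all genes tested were 5.94% higher at day 9 and 10.9% lower at day 13. Of 17 genes of MHC class I presentation 4 rose at day 9, among them H2-Q7 (1.10, SE 0.168, adjusted p = 0.00113), and 7 fell at day 13, among them Tapbp, the peptide-loading chaperone tapasin (−1.01, SE 0.130, adjusted p = 0.000114). The 4 became 1 or 2 without any 1 day 9 library except siRNA replicate 2. The 7 became 1 without day 13 control replicate 1, 4 without control replicate 2 and 3 without siRNA replicate 3. Of 8 tested genes of MHC class II presentation none was called at day 9 by edgeR (2 had an unadjusted p under 0.05, and alternatives called at most 1), and 6 fell at day 13, among them Cd74, the invariant chain (−1.37, SE 0.223, adjusted p = 0.000762), and H2-Aa (−1.51, SE 0.244, adjusted p = 0.000723).

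Markers of macrophages were followed as well. Among all genes tested, 5.94% were called higher and 6.84% lower at day 9, and 12.8% and 10.9% at day 13. Of 15 Kupffer cell markers 12 fell at day 13, and their summed level was 703 to 793 CPM in the controls and 355 to 461 CPM in the siRNA libraries. At day 9, 6 fell and 2 rose, and the sums were 623 to 771 and 651 to 739.9 CPM. Clec4f, a lectin of Kupffer cells, fell at both days (−1.999, SE 0.258, adjusted p = 0.000614 at day 9 and −1.69, SE 0.266, adjusted p = 0.000757 at day 13). Of 14 tested markers of monocytes and infiltrating macrophages 5 rose at day 9, where the 15 summed to 1711 to 2153 CPM in the controls and 2209 to 2534 CPM in the siRNA libraries. At day 13, 3 of them fell, with sums of 1848 to 2272 and 1491.4 to 1821 CPM. Lyz2, a lysozyme of myeloid cells, rose at day 9 (1.26, SE 0.141, adjusted p = 0.000144) and fell at day 13 (−0.74, SE 0.144, adjusted p = 0.00222), as Cxcl9, Gbp9 and Tgtp1 did. None of the Kupffer or monocyte markers was at 0 in a whole group. Leaving out day 9 siRNA replicate 1 left 4 Kupffer markers lower at day 9, and at most 1 was higher there without any 1 day 9 library. Over the alternatives 1 to 7 monocyte and macrophage markers were higher at day 9 and 1 to 4 lower at day 13. The part of these cells in the values of the interferon-stimulated genes was not tested.

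Markers of lymphocytes and neutrophils were low throughout. Of 17 tested T and NK cell markers none was called at either day, and the 18 summed to 11.9 to 17.4 CPM in the day 9 controls, 15.4 to 21.5 CPM in the day 9 siRNA libraries, 13.8 to 19.5 CPM in the day 13 controls and 9.46 to 16.2 CPM in the day 13 siRNA libraries (2 and 1 had an unadjusted p under 0.05). None of 7 tested B cell or 6 tested neutrophil markers was called, with 1 and 0 at an unadjusted p under 0.05 at day 9 and 0 and 0 at day 13. These counts are from edgeR. Over the alternatives, DESeq2 and limma-voom included, at most 1 T or NK cell marker was called at day 9 and 0 at day 13, and 0 B cell or neutrophil markers at either day. Of 9 tested dendritic cell markers 2 rose at day 9 (Flt3 and Xcr1, the latter also on the Kupffer list, both too low to be tested without any 1 day 9 library) and none was called at day 13, where 2 had an unadjusted p under 0.05 and alternatives called at most 1. Sinusoidal endothelial markers were called in 1 of 10 cases at day 9 (higher) and 4 of 10 at day 13 (lower). Stellate cell markers were called in 1 of 8 (higher) and 4 of 8 (lower). The shares over all genes tested were 5.94% higher at day 9 and 10.9% lower at day 13. At day 13 the endothelial markers summed to 374 to 453 CPM in the controls and 319 to 353 CPM in the siRNA libraries. The stellate sums were 456 to 627 CPM in these controls and 356 to 376 CPM in these siRNA libraries. At day 13 the 4 endothelial markers became 2 without control replicate 1 or siRNA replicate 2 or 3, and the 4 stellate markers 2 without control replicate 2 or siRNA replicate 3. The 1 stellate marker at day 9 was not called without any 1 day 9 library or day 13 siRNA replicate 2, and 3 and 2 were called without day 13 control replicates 2 and 3. Hepatocyte markers showed the tissue as labelled: their 8 genes summed to 111658 to 118466 CPM in the day 9 controls. In the day 9 siRNA libraries the sums were lower, at 84043 to 93141 CPM. They were also lower at day 13, at 171098.6 to 198262.5 CPM in the controls and 97124 to 159779 CPM in the siRNA libraries. Of these 8, 2 fell at day 9, and 3 fell and 1 rose at day 13. Among all genes, 6.84% were called lower at day 9, and 10.9% lower and 12.8% higher at day 13. The 1 of 8 higher at day 13 is near that share. At day 9, 1 fell without control replicate 2 or siRNA replicate 1 or 2, and at day 13 the rise was lost without any 1 control or siRNA replicate 1.

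**Figure D5:**
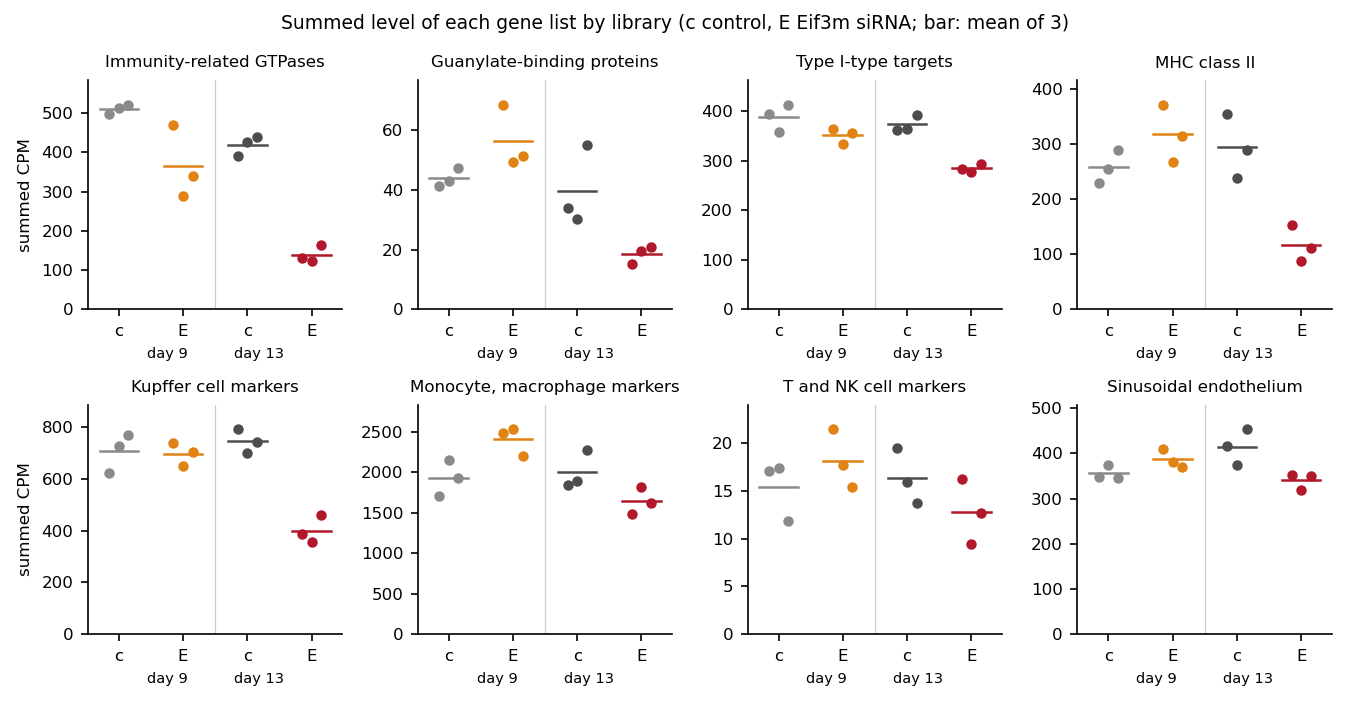
Summed CPM of gene lists in each library, with c for control and E for Eif3m siRNA, points for libraries and bars for the mean of 3, day 9 left and day 13 right. At day 13 the siRNA libraries lie below the controls for every list shown except T and NK cell markers. At day 9 they lie below the controls for immunity-related GTPases. They lie above the day 9 controls for guanylate-binding proteins and for monocyte and macrophage markers.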

How the data were processed

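The 12 libraries are mouse liver mRNA, 3 in each of 4 groups (control and Eif3m siRNA, day 9 and day 13), grouped by the labels. The authors deposited 1 table of estimated counts per gene. Per the submitters' processing notes, STAR 2.5.3a, RSEM 1.3.0 and mm10 were used. What each tool did, which annotation release was used and whether counting used strand is not stated in those notes. RSEM gives fractions and the deposited values are whole numbers, so these are treated as rounded values of expected counts. Of 50686 genes, 50376 matched a symbol of the GENCODE M21 annotation, and the 310 others held 0.0308% of counts.

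edgeR 4.0.16 (R 4.3.3) was used: filterByExpr with a minimum count of 10, TMM normalisation, 1 robust quasi-likelihood model over all 12 libraries and 4 groups (8 residual degrees of freedom), and contrasts for siRNA over control at each day and for day 13 minus day 9 of these. P-values were adjusted by the Benjamini-Hochberg method over 14248 genes. The standard error is the log2 fold change over the square root of F. CPM use TMM-adjusted totals. Alternatives were other scalings and filters, DESeq2 1.42.0, limma-voom (limma 3.58.1), a replicate block, each day alone, thinned counts and leaving out libraries. Floors are 3 counts and cover counting error only.

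All 43 members are accounted for. Values in every library are given for members called at either day or for the difference, with Tgtp2 and some others added after their values were seen; of other lists, up to 4 called genes with the smallest p are named, and a few more were named after their values were seen. The members and lists were chosen with earlier results of these data known. A further pathway gene is not reported here.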

Additional observations from a re-analysis of the deposited data

Results flagged for a closer look

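These genes had an effect of Eif3m siRNA that differed between day 9 and day 13 by the interaction contrast of edgeR's quasi-likelihood test, with Benjamini-Hochberg adjustment over all genes tested. Values are the log2 fold change at day 13 minus that at day 9. Each day is its own set of libraries, of different depth, so a difference between days and one between library sets cannot be told apart. Among the type I-type targets, the difference was −1.41 (adjusted p = 0.023) for Usp18, −2.45 (adjusted p = 0.0193) for Zbp1 and −1.24 (adjusted p = 0.046) for Trim30a. The immunity-related GTPase Iigp1 differed by −1.09 (adjusted p = 0.0325). Igtp differed by −1.22 (adjusted p = 0.0448) and Ifi47 by −1.34 (adjusted p = 0.0234). For Tgtp1 the value was −2.78 (adjusted p = 0.0142). Among guanylate-binding proteins, Gbp2 differed by −1.24 (adjusted p = 0.0253) and Gbp9 by −1.99 (adjusted p = 0.00232). The chemokine Cxcl9 differed by −2.01 (adjusted p = 0.00605). All 10 were more negative at day 13, and in Cxcl9, Gbp9 and Tgtp1 the siRNA libraries were called higher at day 9 and lower at day 13.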

How the results depend on the processing

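No called value of a member reversed in any alternative: of 899 alternative values for single members, 767 kept their direction and side of the threshold and 132 no longer passed it. At day 9, 7 of 11 calls held in every alternative in which the member was tested, at day 13 12 of 21, and for the difference 2 of 10 (Gbp9 and Cxcl9). The 0 members higher at day 13 and the 0 with a positive difference stayed at 0 in every alternative run. The 5 members higher at day 9 became 8 with each day fitted alone and 3 to 6 without 1 library. Over all genes tested, 846 of 14248 were called higher at day 9 in the main run and 1687 of 14817 with each day alone. With each day fitted alone, 7 members were lower at day 9, and the 21 lower at day 13 became 15. Genes called lower at day 13 then went from 1553 of 14248 to 954 of 11964. The 6 lower at day 9 became 2 under a filter that keeps only genes averaging 5 CPM or more, where fewer members are tested. The 10 differences became 4 under limma-voom, 14 by DESeq2, 6 without both day 13 libraries that stood apart and 4 to 11 without 1 library. They were 4 without day 9 siRNA replicate 1, 5 without day 9 siRNA replicate 3 or control replicate 2, and 6 without day 9 control replicate 1. The count over all genes in that direction moved too, from 236 of 14248 to 159 under limma-voom and 520 by DESeq2. It was 230 of 15591 without both day 13 libraries that stood apart and 96 of 12899 without day 9 siRNA replicate 1. Where no value shows the cause, the cause was not tested.

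The median of the type I-type targets at day 13 was −0.24 under that filter, −0.50 without both day 13 libraries that stood apart, and −0.68 to −0.49 without 1 library (−0.49 without day 13 control replicate 3). For GTPases the filter gave −0.19 at day 9 and −1.53 at day 13. Under limma-voom the day 13 calls of Cxcl9, Ifit3, Irf1, Oas2, Rsad2, Tgtp1 and Trim30a were lost (14 lower). Over all 14248 genes, 1222 were then called lower at day 13, against 1553 in the main run.

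With the replicate block within each day, 3 members were higher at day 9 and 4 differed between the days. Of all 14248 genes, 542 were then called higher at day 9 and 89 had an effect called more negative at day 13. Replicate numbers are shared by the labels of both groups, but same-numbered libraries did not deviate together: the correlations of their deviations were −0.12, −0.13 and 0.24 at day 9 and 0.22, −0.13 and −0.07 at day 13. The numbers were therefore not taken as a pairing. Depth limits the low members at day 13, where 3 counts in a library are worth 0.278 to 0.427 CPM.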
